A study of Mus musculus with 8 samples.

Results

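The genes described here encode the core proteins of the spliceosome and the heterogeneous nuclear ribonucleoproteins (hnRNPs). They were chosen by name alone, as every mouse gene symbol that starts with Sf3a, Sf3b, Prpf, Snrp, Hnrnp, Lsm followed by a digit, or U2af. The rule found 70 of the 24535 genes with RNA-seq values and 71 of the 25033 genes with Ribo-seq values. These were 3 Sf3a, 6 Sf3b, 3 U2af, 12 Snrp, 13 Lsm, 13 Prpf and 21 Hnrnp genes, of which the pseudogene Hnrnpa1l2-ps2 had Ribo-seq values only and was listed at 0 in all 4 libraries.

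Livers came from C57BL/6 mice that all received a diet with 45% of its energy from fat, started at 8 weeks of age. The HF group had no other treatment, and the HB group also drank water with 2% (w/v) betaine, a methyl donor. Livers were taken at 25 weeks of age. The labels also give 25 weeks on the diet, more than these ages allow, while the study's methods give a shorter time that matches the ages. Each group had 2 RNA-seq libraries of polyadenylated RNA and 2 Ribo-seq libraries of ribosome-protected fragments (RPFs), named HF1, HF2, HB1 and HB2 in each assay. The labels describe pooled RNA preparations and the study's methods describe individual mice, so whether a library is 1 animal is uncertain, and p-values measure only the spread between these libraries. Whole liver holds several cell types, so fewer cells of a type and less RNA per cell cannot be told apart.

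The spliceosome removes introns from pre-mRNA. Its U1 and U2 small nuclear ribonucleoproteins (snRNPs) mark the ends of the intron, with the U2AF proteins reading the 3′ splice site and the SF3A and SF3B complexes holding U2 on the branch point, before the U4/U6.U5 tri-snRNP with its PRPF proteins joins. Snrp genes encode the ring of Sm proteins and proteins particular to U1 and U2, Lsm genes encode the related rings on U6 snRNA and on decaying mRNA, and hnRNPs coat nascent transcripts and steer the choice of splice sites.

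In mRNA, 10 of 69 tested members fell in HB livers and 3 rose at an adjusted p under 0.05, shares close to those of all genes (12.7% and 5.01%). These adjusted counts were 0 for members and all genes alike when genes of low RPKM were not filtered out. At the study's threshold, which has no adjustment, 8 fell, among them 3 of 20 hnRNPs, and 1, Snrpb, rose, where 6.56% of all genes fell and 2.30% rose. The HB mean of Sf3b1, Prpf38b, Prpf39 and Hnrnph1 was 0.251 to 0.296 times the HF mean, and that of Snrpb, Snrpc and Lsm4 was more than 2 times it. None of the 16 members with at least 100 Ribo-seq reads was called in footprints, where 1.67% of such genes were called higher and 7.67% lower. RPKM, the reads per kilobase of gene scaled to the library's depth in reads, is the unit of all levels below, and a log2 fold change is HB minus HF on log2(RPKM + 1).

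Library depth set how firmly these values can be read. RNA-seq libraries held an estimated 11661207 to 22543471 reads and Ribo-seq libraries 141890 to 1056546, the shallowest being HB2. A tested member had a median of 482 reads in an RNA-seq library but of only 38.5 Ribo-seq reads over all 4 libraries together, near the 39 of all tested genes. In Ribo-seq 12 of the 71 members had at least 10 reads in every library, and 19 were listed at 0 in HB2. Reads on protein-coding genes made up 93.4% and 92.4% of the HF Ribo-seq libraries but 87.8% and 80.1% of the HB ones.

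Promoter sequences are shown for the 4 members called lower in mRNA under each of the 15 alternatives tried, and for Snrpc, the only one of the 3 risen members with an entry in the promoter table. Each is the 120 bases before the start in RefSeq's annotation on the gene's strand (GRCm38.p6), with the letters CCGGAAG of the ETS family motif, where present on either strand, in capitals. The gene coordinates given further on are from GENCODE, and for Snrpc the annotations differ, so that its stretch lies inside the GENCODE gene.
Sf3b1, chr1:55027479-55027598, minus strand: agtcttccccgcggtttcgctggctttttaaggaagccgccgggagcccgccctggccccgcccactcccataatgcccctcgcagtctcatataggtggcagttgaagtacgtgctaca
Prpf38b, chr3:108911730-108911849, minus strand: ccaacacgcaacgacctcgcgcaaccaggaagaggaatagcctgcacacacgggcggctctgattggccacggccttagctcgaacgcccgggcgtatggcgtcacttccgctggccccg
Prpf39, chr12:65036214-65036333, plus strand: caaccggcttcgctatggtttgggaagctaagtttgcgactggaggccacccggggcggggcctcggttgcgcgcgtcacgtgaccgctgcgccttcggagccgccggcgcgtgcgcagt
Hnrnph1, chr11:50376870-50376989, plus strand: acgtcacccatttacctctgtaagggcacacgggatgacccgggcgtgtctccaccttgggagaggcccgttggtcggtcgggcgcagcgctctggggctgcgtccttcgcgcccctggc
Snrpc, chr17:27839967-27840086, plus strand: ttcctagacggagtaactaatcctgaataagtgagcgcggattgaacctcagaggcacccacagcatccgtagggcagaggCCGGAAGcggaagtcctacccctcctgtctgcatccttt

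The promoter table matched 59 of the 71 members, with 1 promoter taken per gene, the one nearest the annotated gene start. Over the 250 bases before the start, CCGGAAG on either strand was in 14 of the 59 promoters (23.7%), against 14.7% of the 8390 tested genes in the table. None of the 8 members called lower in mRNA held it, while Sf3a2, lower at adjusted p, did. The letters CCAAT were in 29 of the 59 (49.2%, against 36.8%) and in 4 of those 8, and TATAAA was in 4 of the 59 (6.78%, against 6.62%) and in none of the 8. Neither the palindromic NRF1 motif nor AAGATGGCG (YY1) was in a member's window, against 1.75% and 1.26% of tested genes. CCGGAAG and AAGATGGCG can overlap by their AAG. A match is a description of the window only.

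The subfamilies differed in mRNA level. U2af genes had the highest median RPKM in HF, 89.2 in HF1 and 74.2 in HF2, and stood at 30.1 in HB1 and 39.8 in HB2. Hnrnp genes followed at 34.6 and 31.7 in HF and 30.4 and 23.3 in HB. Snrp genes (25.9, 24.0, 26.5 and 30.1 in HF1, HF2, HB1 and HB2) and Sf3b genes (23.9, 20.3, 20.0 and 19.0) lay close together. Below them were Prpf genes (10.2, 9.75, 6.24 and 4.84), Sf3a genes (9.80, 10.2, 9.99 and 9.58) and Lsm genes (8.48, 10.8, 9.51 and 10.0), which did not differ beyond their spread in HF. The members with the highest mean mRNA in their subfamilies were Sf3a2, Sf3b1, U2af1, Snrpd2, Lsm7, Prpf38b and Hnrnpa2b1.

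Taken as sums of RPKM, the mRNA of 5 of the 7 subfamilies was lower in both HB libraries than in both HF libraries. The ratio of the HB to the HF mean was 0.557 for U2af, 0.560 for Sf3a, 0.602 for Prpf, 0.791 for Hnrnp and 0.794 for Sf3b genes. Without Sf3b1 the Sf3b sum was higher in HB than in HF (ratio 1.22), and without Sf3a2 the Sf3a ratio was 0.933. For Snrp (0.967) and Lsm genes (1.13) the libraries of the groups overlapped. Without Lsm7 the Lsm sum was higher in both HB libraries (ratio 1.36), and without Snrpd2 the Snrp groups still overlapped (1.11). All members together took 0.464% and 0.425% of the RNA-seq reads in HF1 and HF2 (95% exact binomial intervals 0.461 to 0.468 and 0.421 to 0.429, counting error only) and 0.347% and 0.308% in HB1 and HB2 (0.344 to 0.349 and 0.305 to 0.310). The read numbers rest on recovered gene lengths, whose error the intervals leave out. For Hnrnpu the RNA-seq length of 1835 bases came out shorter than its longest coding sequence of 2400 bases.

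**Figure D1:**
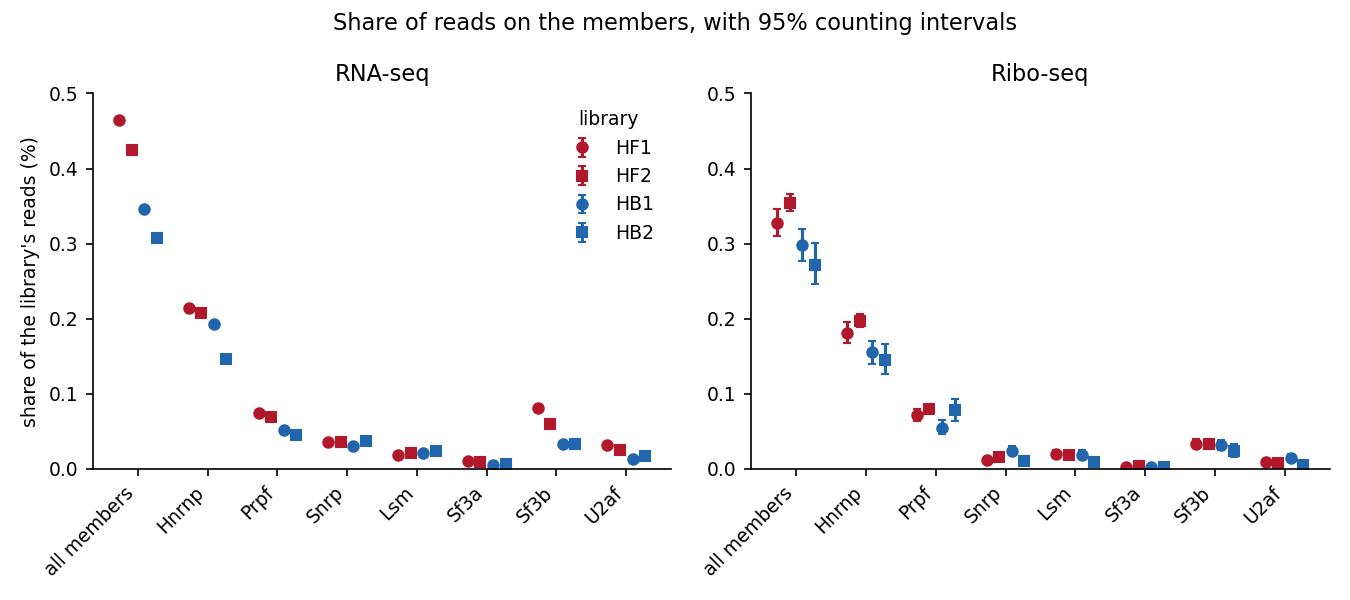
Share of each library's estimated reads that fell on all members or on one subfamily (vertical axis, percent), in RNA-seq (left) and Ribo-seq (right), with HF1 and HF2 in red, HB1 and HB2 in blue and bars for exact binomial intervals of 95%. In RNA-seq the members' share was 0.464% and 0.425% in HF and 0.347% and 0.308% in HB, and in Ribo-seq it was 0.327% and 0.354% in HF and 0.298% and 0.272% in HB.

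mRNA was tested in 69 members. Both HB libraries lay below both HF libraries in 28 of them and above in 18, against 43.3% and 24.8% of all tested genes. Groups that do not overlap were therefore common over all genes. A member is called past a log2 fold change of 1 where limma's p before adjustment was under 0.001, and 1 was called higher and 8 lower in HB. Over all 10687 genes tested, 2.30% were called higher and 6.56% lower, so neither count stands far from the background. At a Benjamini-Hochberg adjusted p under 0.05 with the same fold change, 3 members rose and 10 fell. Without the filter on mean RPKM no member and none of all 16758 genes passed at adjusted p, and at the unadjusted threshold 0 members were called higher and 5 lower, against 0.459% and 1.12% of those genes. The limma adjusted p of the 13 members there was 0.0539 to 0.0674. Without HF1 the adjusted counts of members were 2 higher and 6 lower, against 2.91% and 8.87% of all genes. Without HF2 they were 1 and 10, against 4.65% and 12.5%, and without HB1 5 and 12, against 4.25% and 10.5%. The median log2 fold change was -0.03 for members and -0.19 for all genes, with 32 members above 0 and 37 below. With all libraries shifted to a common median the all-gene median became 0.08, and members were called higher in 4 cases and lower in 4, against 5.05% and 2.72% of all genes. At adjusted p that scaling gave 5 members higher and 7 lower, against 9.69% and 6.33% of all genes. Without HF1 the count of members called lower was 5, against 5.14% of all genes. Without HF1 or without HF2 no member was called higher, where 1.55% or 2.26% of all genes were.

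In the U2 snRNP, Sf3b1 (chr1:54985169-55027481, minus strand, GRCm38), the large SF3B subunit that grips the branch point, had 92.3 and 65.2 RPKM in HF1 and HF2 and 20.8 and 23.5 in HB1 and HB2. Every HB value was less than the lower HF value by over 2 times. Its log2 fold change was -1.77 ± 0.27 (SE; limma adjusted p = 0.00526), and it was called lower under each alternative. Sf3a2, an SF3A subunit, had 38.3 and 27.0 RPKM in HF and 9.99 and 15.6 in HB, a log2 fold change of -1.30 ± 0.30 (limma adjusted p = 0.0137). The groups did not overlap, and the change passed the adjusted threshold but not the unadjusted one of 0.001. Without HF1 it was -1.05 and no longer passed at adjusted p.

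No other gene of SF3A or SF3B was called. Sf3a1, which joins SF3A to U2, had 4.41 and 5.04 RPKM in HF and 3.95 and 3.86 in HB (log2 fold change -0.22 ± 0.24). Sf3b6, the small subunit at the branch point, had 7.45 and 9.09 RPKM in HF and 19.2 and 14.5 in HB, higher in both HB libraries but under the fold threshold (0.93 ± 0.26). The log2 fold changes of the 6 Sf3b genes spanned -1.77 to 0.93, with 3 above 0 and 3 below.

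U2AF, the dimer that reads the polypyrimidine tract and the AG of the 3′ splice site, was lower in its large subunit. U2af2 (chr7:5062143-5079938, plus strand), the subunit on the tract, had 89.2 and 74.2 RPKM in HF and 30.1 and 39.8 in HB, with a log2 fold change of -1.21 ± 0.26 (limma adjusted p = 0.0119). It did not pass the unadjusted threshold, and the adjusted one was missed without HF1 (-1.08) and with a common median (-0.94). U2af1, the subunit on the AG, had 114 and 77.6 RPKM in HF and 47.0 and 63.0 in HB. Its groups did not overlap either, but its log2 fold change of -0.78 ± 0.29 was not past the threshold (limma adjusted p = 0.0723). The paralog U2af1l4, whose exons overlap Psenen on the other strand, had overlapping groups (-0.06 ± 0.26).

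Among PRPF proteins, 4 of 13 were called lower, where 6.56% of all genes were. Prpf38b (chr3:108902805-108911727, minus strand), a relative of the Prpf38a protein of the activating spliceosome, had 61.3 and 50.2 RPKM in HF and 14.0 in both HB libraries. Both HB values were well under the HF ones, and its log2 fold change of -1.91 ± 0.25 was the lowest of all members (limma adjusted p = 0.00523). Prpf39 (chr12:65036333-65063386, plus strand), a U1-associated protein whose exons overlap Fkbp3 on the other strand, had 18.8 and 19.9 RPKM in HF and 5.48 and 4.64 in HB (-1.75 ± 0.25, limma adjusted p = 0.00523).

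Prpf40b, a WW-domain protein of the U1 snRNP, had 23.1 and 20.7 RPKM in HF and 4.37 and 8.22 in HB (-1.70 ± 0.30, limma adjusted p = 0.00665). Prpf3, a protein of the U4/U6 snRNP, had 12.1 and 9.75 in HF and 3.90 and 4.09 in HB (-1.25 ± 0.25, limma adjusted p = 0.00925). Neither gene's groups overlapped. Both calls were lost without the RPKM filter, which left the fold changes as they were, and with a common median, where they were -1.43 for Prpf40b and -0.98 for Prpf3. That of Prpf3 was also lost without HF1 (-1.11) and without HF2 (-1.39). The large scaffolds were not among these: Prpf8, at the heart of U5, had 23.2 and 22.1 RPKM in HF and 18.7 and 18.4 in HB (-0.28 ± 0.24). Prpf19, the ubiquitin ligase of the Prp19 complex, had 10.2 and 11.2 in HF and 17.6 and 17.4 in HB, a log2 fold change of 0.66 ± 0.24 that did not pass (limma adjusted p = 0.0693).

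The Hnrnp genes had 3 of 20 tested members called lower, beside 6.56% of all genes, and none higher. Hnrnph1 (chr11:50376990-50386528, plus strand), which binds runs of G, had 141 and 118 RPKM in HF and 36.8 and 39.8 in HB (-1.73 ± 0.25, limma adjusted p = 0.00525). Its smaller relative Hnrnph3, whose exons overlap Rufy2 on the other strand, had 33.7 and 31.8 in HF and 9.06 and 13.8 in HB (-1.47 ± 0.27, limma adjusted p = 0.00745). The Hnrnph3 call was lost without the RPKM filter (-1.47), with a common median (-1.19) and without HF1 (-1.43), all past the fold threshold. Both genes stood apart between groups, whereas their paralog Hnrnph2 had overlapping groups and a log2 fold change of 0.01 ± 0.30.

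Hnrnpl, which binds CA repeats, had 87.8 and 83.7 RPKM in HF and 33.7 and 38.3 in HB (-1.23 ± 0.25, limma adjusted p = 0.00915). Its call was lost without HF1 (-1.20), without HF2 (-1.27) and with a common median (-0.96). The abundant hnRNPs of the A, C, K and U types were not called. Hnrnpa2b1 had 72.5 and 72.0 RPKM in HF and 120 and 72.5 in HB (0.36 ± 0.29), with only HB1 high. Hnrnpa1 had 26.7 and 23.1 in HF and 30.6 and 19.4 in HB (-0.03 ± 0.28).

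Hnrnpc, which binds U tracts, had 35.4 and 31.5 RPKM in HF and 30.2 and 21.2 in HB (-0.39 ± 0.27). Hnrnpk, which binds C-rich RNA, had 55.8 and 54.6 in HF and 69.0 and 39.7 in HB (-0.07 ± 0.30). Hnrnpu, the scaffold attachment factor, had 44.0 and 42.0 in HF and 42.4 and 25.5 in HB (-0.38 ± 0.29). In these and in Hnrnpa1 and Hnrnpa2b1 HB1 was above HB2, and only for Hnrnpc did the groups not overlap.

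Snrp and Lsm genes held the members that rose. Snrpb (chr2:130171414-130179403, minus strand), the SmB protein of the ring on U1, U2, U4 and U5, had 17.9 and 15.6 RPKM in HF and 47.1 and 34.6 in HB. Both HB values exceeded both HF values, with a log2 fold change of 1.22 ± 0.26 (limma adjusted p = 0.0111). The call was lost in 8 of the 15 alternatives: without HF1, without HF2, without HB1, with a pseudocount of 0.1, without the RPKM filter, with a common sum of RPKM, with protein-coding reads and with voom. The log2 fold change in these was 1.01 to 1.32. Snrpn, the near-identical SmN gene that shares exons with Snurf, had 6.20 and 6.60 in HF and 7.95 and 9.19 in HB (0.37 ± 0.25), and reads shared between these paralogs cannot be assigned with certainty.

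Snrpc (chr17:27838150-27851968, plus strand), the U1 protein at the 5′ splice site, had 10.7 and 14.1 RPKM in HF and 26.1 and 28.1 in HB (1.08 ± 0.26, limma adjusted p = 0.0158). Lsm4 (chr8:70673248-70678752, plus strand), a protein of the U6 ring, had 20.4 and 17.5 in HF and 38.0 and 47.1 in HB (1.12 ± 0.25, limma adjusted p = 0.0132). The groups did not overlap for either gene, and neither passed the unadjusted threshold. At adjusted p Snrpc was lost without HF1 (0.89), and Lsm4 without HF2 (1.02) and without HB2 (0.97). Other Sm proteins were not called: Snrpd1 (SmD1) had 29.5 and 24.2 RPKM in HF and 13.7 and 12.6 in HB, a log2 fold change of -0.97 ± 0.25 just short of the fold threshold (limma adjusted p = 0.0202).

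Snrpd2 (SmD2), the member with the highest mean mRNA of the Snrp genes, had 182 and 167 RPKM in HF and 85.6 and 160 in HB (-0.57 ± 0.32). Snrpa1, a protein of the U2 snRNP, had 19.3 and 23.3 in HF and 11.5 and 15.4 in HB (-0.63 ± 0.26, limma adjusted p = 0.102). The groups of both genes did not overlap, with HB2 close under HF for Snrpd2. Lsm7 (U6 ring) had 69.1 and 81.1 in HF and 40.6 and 80.1 in HB (-0.39 ± 0.33), and Lsm1, of the cytoplasmic ring that promotes decapping, had 4.07 and 4.95 in HF and 5.60 and 6.00 in HB (0.31 ± 0.25).

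By subfamily the median mRNA log2 fold change was 0.28 for Snrp, 0.31 for Lsm, 0.01 for Sf3b, -0.14 for Prpf, -0.22 for Sf3a, -0.22 for Hnrnp and -0.78 for U2af genes, beside -0.19 for all genes tested. With a common median the medians of the Prpf, Sf3a and Hnrnp genes turned to 0.13, 0.05 and 0.05. That of the Sf3b genes was -0.03 with a common sum of RPKM. Those of the Snrp, Lsm and U2af genes kept their sign under the scalings tried.

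**Figure D2:**
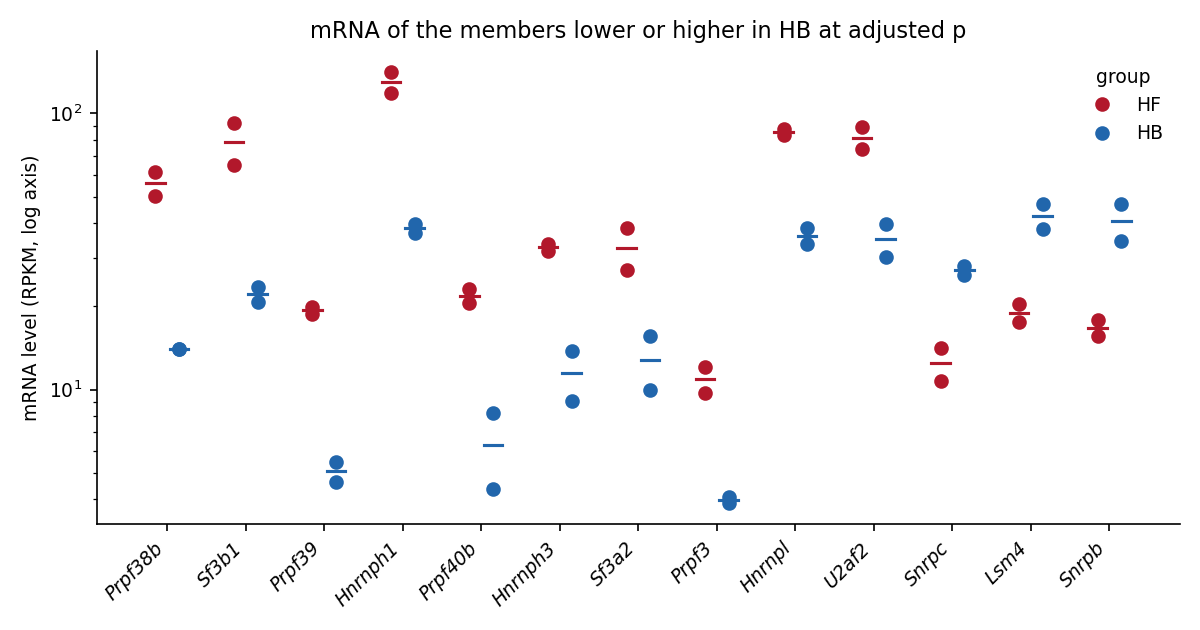
mRNA level in RPKM (log axis) of the 13 members with a log2 fold change beyond 1 at an adjusted p under 0.05, each point a library and each bar the mean of 2 libraries, with HF in red and HB in blue. For the 10 members on the left both HB libraries lay below both HF libraries, and for Snrpc, Lsm4 and Snrpb above them. Of all tested genes, 43.3% lay below in this way and 24.8% above.

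Members that fell and members that rose also differed in the length of their coding sequence, which the rule did not use. The 10 members lower at an adjusted p under 0.05 had a longest annotated coding sequence (GENCODE M21) of 1038 to 3912 bases, and the 3 higher ones of 414 to 693 bases. Of the 30 members under 1000 bases, a limit chosen after the values were seen, none was called lower, 1 was called higher and 19 had a log2 fold change above 0, with a median of 0.30. Of the 3417 tested protein-coding genes under 1000 bases, 87 (2.55%) were called lower and 139 (4.07%) higher. Of the 39 longer members, 8 were called lower (20.5%) and 13 were above 0, with a median of -0.30.

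The same lean was present over all protein-coding genes. Those under 1000 bases had a median of 0.11, and the longer ones had a median of -0.31 with 8.23% called lower. Spearman's rho between coding length and mRNA log2 fold change was -0.43 across 69 members and -0.34 across 10175 protein-coding genes. This is a description across genes of the same libraries, which are not independent. In RPF the rho was 0.17 across 68 members and -0.09 across 10400 genes.

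Annotated transcript types were counted as well. A retained-intron transcript was annotated for 7 of the 8 members called lower, for 51 of 69 tested members (73.9%) and for 61.0% of tested protein-coding genes. A transcript marked for nonsense-mediated decay was annotated for 7 of the 8, for 28 of 69 members (40.6%) and for 29.8% of tested protein-coding genes. Among all protein-coding genes called lower the shares were 68.4% and 41.4%, and among those called higher 51.5% and 21.3%. All 3 members higher at adjusted p had a retained-intron transcript, and 1 had a transcript marked for nonsense-mediated decay. Hnrnph1 was the called member without either type.

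**Figure D3:**
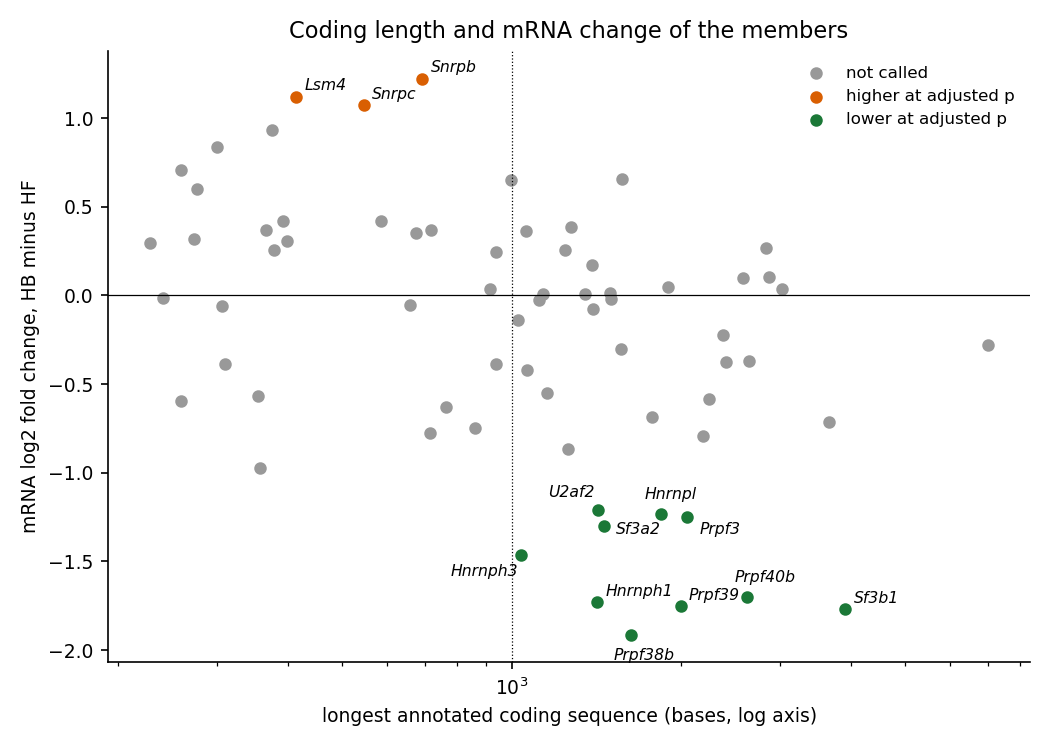
Longest annotated coding sequence in bases (log axis) against the mRNA log2 fold change, HB minus HF, of the 69 tested members, with a dotted line at 1000 bases. The 10 members lower at adjusted p (green) lie between 1038 and 3912 bases and the 3 higher ones (orange) between 414 and 693.

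Other genes of the splicing machinery, from a list that the naming rule does not cover, were examined beside the members. Of 62 tested, 6 were called lower and 1 higher in mRNA, where 6.56% and 2.30% of all genes were, so neither count stands far from the background. At an adjusted p under 0.05 the share of the list that was lower exceeded the 12.7% of all genes. In this list 48 had a log2 fold change below 0 with a median of -0.36. Luc7l2, a U1-associated protein, had 139 and 162 RPKM in HF and 35.6 and 30.0 in HB (-2.17 ± 0.25, limma adjusted p = 0.00493). Rbm25, a regulator of splicing, had 48.4 and 40.9 in HF and 14.9 and 10.6 in HB (-1.75 ± 0.27, limma adjusted p = 0.00526). Sf1, which recognises the branch point before SF3B arrives, had 73.0 and 54.7 in HF and 21.4 and 25.1 in HB (-1.41 ± 0.26, limma adjusted p = 0.00752).

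All 3 of these genes had groups that did not overlap. The called gene in the other direction was Snrnp25 of the minor spliceosome, at 0.72 and 1.32 RPKM in HF and 3.73 and 5.32 in HB (1.45 ± 0.27, limma adjusted p = 0.00748). None of the 10 hnRNP proteins under other symbols, such as Ptbp1 and Pcbp1, was called in any measure, and their median mRNA log2 fold change was -0.32.

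Of 6 long noncoding RNAs tested, nuclear ones and hosts of snoRNAs, 3 were called lower and none higher, beside 6.56% of all genes called lower. Neat1, the RNA of paraspeckles, had 51.3 and 64.8 RPKM in HF and 20.6 and 18.7 in HB (-1.51 ± 0.25, limma adjusted p = 0.00583). The snoRNA hosts Snhg1 (-1.41 ± 0.25) and Snhg12 (-1.37 ± 0.27) also fell. The host Gas5 (-1.08 ± 0.25, limma adjusted p = 0.0139) passed at adjusted p only, and Meg3 was not called (-0.38 ± 0.24). The abundant nuclear RNA Malat1 stood at 76.7 and 88.9 in HF and 91.6 and 71.1 in HB (-0.03 ± 0.26). The part of these RNAs in the members' changes was not tested.

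Hepatocyte markers were high in every library. The summed mRNA of 6 hepatocyte markers was 44231 and 46511 RPKM in HF and 49676 and 49341 in HB. Of the other cell types, 6 macrophage markers summed to 98.5 and 105 in HF and 96.7 and 86.5 in HB, 6 endothelial markers to 59.5 and 67.6 against 55.9 and 64.8, and 6 stellate markers to 31.2 and 30.5 against 68.4 and 39.5. Erythroid genes summed to 675 and 523 in HF and to 738 and 2248 in HB, with HB2 apart. Lymphocyte markers summed to at most 4.79 and dividing-cell markers to at most 2.92 in any library, and the cholangiocyte markers to 26.2 and 31.9 against 15.7 and 26.0. None of these lists has a member called lower in mRNA, and their part in the members' changes was not tested.

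RPF was tested in 68 members, with calls made past a log2 fold change of 1 where limma's p before adjustment was under 0.05. In HB 1 was called higher and 3 lower, against 1.58% and 7.86% of all 11190 genes tested, so both shares were near or under the background. No member and no other gene passed the fold change at an adjusted p under 0.05 in this limma fit, where 4 members and 1122 of all genes were under 0.05 before adjustment. At adjusted p other settings called some genes: 49 higher and 27 lower with voom on recovered reads, 13 and 11 with the replicate block, 51 and 28 with crossed blocks, and 0 and 1 at a mean RPKM of at least 5, with no member among them. Without HF1 they were 1 and 649 and without HF2 5 and 697, each with Lsm2 and Lsm10 among the lower ones. Of the 68 members, 52 had a log2 fold change below 0. Both HB libraries lay below both HF libraries in 20 and above in 7, against 33.2% and 9.07% of all tested genes. The members' median was -0.56 and that of all genes -0.43. After scaling to a common median 4 members were called higher and 2 lower, against 3.12% and 3.76% of all genes, and after scaling to a common sum of RPKM 0 and 18, against 0.360% and 24.2%. Without HB1 the count called lower was 20 and without HB2 it was 9, against 23.3% and 14.2% of all genes.

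Hnrnpa1 (chr15:103240432-103246692, plus strand), a shuttling hnRNP that represses splice sites, was the called member with the most footprints. It had 25.8 and 28.9 RPKM of RPF in HF1 and HF2 and 13.0 and 11.7 in HB1 and HB2, from 18, 55, 6 and 3 reads. The groups did not overlap and the log2 fold change was -1.08 ± 0.37 (limma adjusted p = 0.493). Pooled over libraries its rate in HB was 0.446 times that in HF (95% exact interval 0.196 to 0.895, counting error only). Without HF1 or HF2 the log2 fold change was -1.165 or -1.005, about as large, but no longer called. The call was also lost with a common median (-0.76), protein-coding reads (-0.95), voom (-1.04), either block and no variance trend. Hnrnpa1 has processed pseudogenes, and how reads that fit several copies were placed is not given in the sources used here.

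Snrpg, the SmG protein of the Sm ring, was the member called higher, with 19.7 and 19.3 RPKM in HF and 129 and 35.9 in HB from 3, 8, 13 and 2 reads. Its HB libraries lay above HF but far apart, and the log2 fold change was 1.76 ± 0.65 (limma adjusted p = 0.493). Without HB1 it was 0.85 and no longer called. Without HF1 or HF2 it was 1.77 or 1.74, hardly moved, but the p-value no longer passed. The pooled rate in HB was 4.94 times that in HF (2.12 to 11.9).

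The other 2 calls rest on almost no reads. Lsm2, of the U6 ring, had 7.23 and 5.31 RPKM in HF from 2 and 4 reads and was listed at 0 in HB. Lsm10, of the U7 snRNP that processes histone mRNA, had 9.53 and 3.50 in HF from 3 reads each and was listed at 0 in HB. A count of 3 reads in the HB libraries would on average have been 23.0 RPKM for Lsm2 and 20.2 for Lsm10, more than either HF level. A difference was therefore not detectable at this depth, and the limma adjusted p was 0.493 for both.

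The 16 members with at least 100 Ribo-seq reads over the 4 libraries included Prpf8, Prpf19, Sf3b1, Sf3b2 and 10 hnRNPs. None of them was called, where 48 of the 2880 genes with as many reads were called higher (1.67%) and 221 lower (7.67%). Their log2 fold changes spanned -0.98 to 0.72, and 4 were above 0. Their standard errors were 0.27 to 0.63, against 0.32 to 2.06 for the other tested members and 0.24 to 0.41 in mRNA.

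Prpf8 had 54.8 and 59.5 RPKM of RPF in HF and 39.0 and 55.6 in HB, from 159, 470, 75 and 59 reads (-0.29 ± 0.33). Hnrnpk had 72.7 and 115 in HF and 98.7 and 90.6 in HB (0.05 ± 0.33). Hnrnpu had 41.6 and 38.6 in HF and 13.3 and 29.4 in HB (-0.98 ± 0.47). Only for Hnrnpu of these did the groups not overlap. Hnrnpa2b1 (64.4 and 63.1 against 59.7 and 24.7) and Hnrnpc (20.1 and 23.1 against 23.5 and 7.09) were lowest in HB2, with HB1 near HF.

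As a sum of RPKM, footprints on the Hnrnp genes were 602 and 662 in HF and 529 and 496 in HB, the only subfamily whose groups did not overlap. The ratio of means was 0.810, beside 0.791 for their mRNA. The median RPF log2 fold change of all genes was -0.43, and protein-coding genes took a smaller share of the HB Ribo-seq reads. For Prpf genes the sums were 129 and 152 in HF and 109 and 151 in HB, and for Sf3b genes 92.8 and 94.9 against 123 and 70.6. Over all members the read shares were 0.327% and 0.354% in HF (0.310 to 0.346 and 0.343 to 0.366) and 0.298% and 0.272% in HB (0.277 to 0.319 and 0.246 to 0.301).

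**Figure D4:**
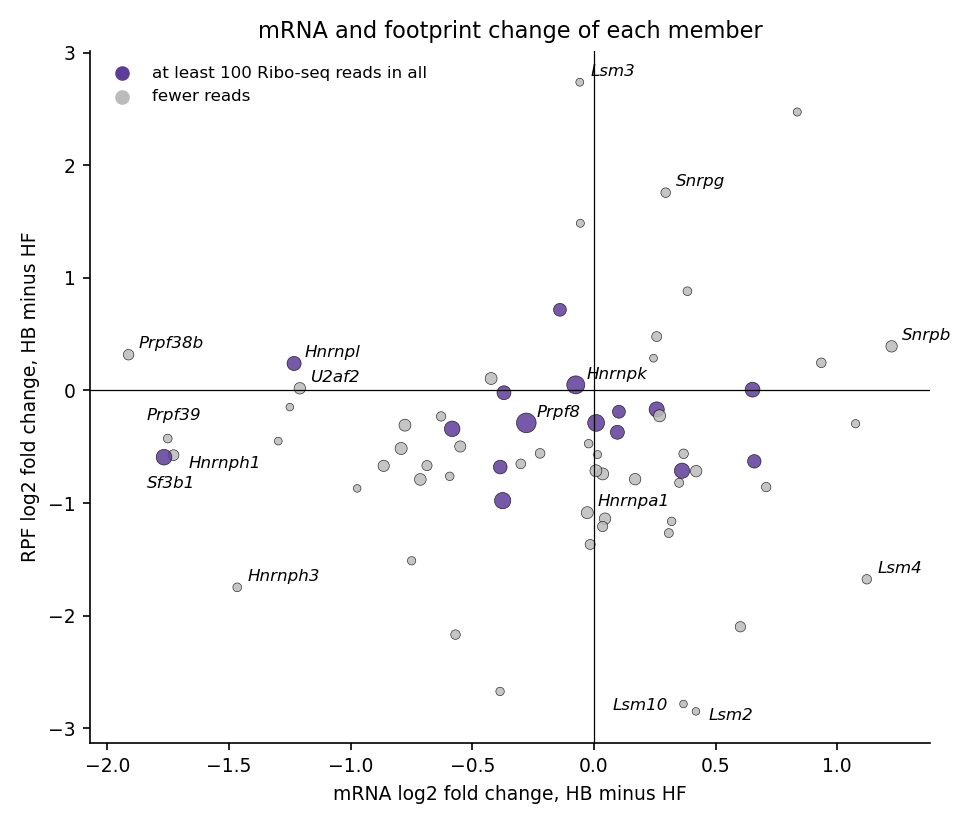
mRNA log2 fold change (horizontal) against RPF log2 fold change (vertical), HB minus HF, of each member tested in both, with the point's area growing with its Ribo-seq reads and purple for at least 100 reads. Sf3b1 and Hnrnpl lie at -1.77 and -1.23 in mRNA and at -0.59 and 0.24 in RPF, and Lsm2 and Lsm10, at the bottom, rest on 6 Ribo-seq reads each.

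Footprints of the members that fell in mRNA were compared with their mRNA. Sf3b1 had 22.9 and 28.4 RPKM of RPF in HF and 20.1 and 13.7 in HB, from 55, 186, 32 and 12 reads (-0.59 ± 0.40). Hnrnpl had 32.5 and 49.5 in HF and 38.1 and 59.2 in HB, from 27, 112, 21 and 18 reads (0.24 ± 0.40). Sf3b1 footprints were lower in both HB libraries, while the Hnrnpl groups overlapped.

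U2af2 had 16.4 and 13.3 RPKM of RPF in HF and 33.6 and 6.40 in HB (0.02 ± 0.81), and U2af1 had 54.0 and 45.9 against 51.5 and 31.1 (-0.31 ± 0.37). Prpf38b had 5.82 and 7.63 in HF and 3.76 and 18.2 in HB from 7, 25, 3 and 8 reads (0.32 ± 0.81). Hnrnph1 had 12.9 in both HF libraries and 5.29 and 12.8 in HB (-0.57 ± 0.57). HB2 rests on 2 to 8 reads for each of these 4, and only for Hnrnph1 did the groups not overlap, by 12.8 against 12.9. The called-lower genes tested in RPF numbered 7, of which 5 were below 0 and 2 above, with a median of -0.43, as for all genes.

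The RPF to mRNA ratio, or translation efficiency (TE), was tested in 68 members from libraries with the same group and number, with calls made past a log2 fold change of 2 where limma's p before adjustment was under 0.05. Called were 1 higher and 2 lower, against 1.49% and 4.60% of all 9455 genes tested. No gene passed the fold change at an adjusted p under 0.05 in this limma fit, where 4 members and 1154 of all genes were under 0.05 before adjustment. At adjusted p the limma interaction model called 1 gene higher, crossed blocks 6 higher and 28 lower, and the genes with at least 100 Ribo-seq reads 2 and 2. Without HB1 the adjusted calls were 238 and 1099, with 2 and 11 members among them, and without HB2 they were 270 and 594, with 3 and 3. The median log2 TE change was -0.32 for members and -0.35 for all genes, with 27 members above 0 and 41 below. Shifted to a common median, the members' median was 0.0047 and 2 were called in each direction, against 2.74% of all genes higher and 2.68% lower. Without HB1 the counts were 3 higher and 11 lower, against 3.22% and 13.4% of all genes, and without HB2 they were 5 and 4, against 4.81% and 7.65%.

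All 3 calls were Lsm genes. Lsm3, of the U6 ring, had ratios of 0 and 0.487 in HF and 1.11 and 1.67 in HB from 0, 4, 2 and 2 Ribo-seq reads (log2 change 2.79 ± 1.06, limma adjusted p = 0.390). Its pooled footprint rate in HB was 3.62 times that in HF, with an interval of 0.674 to 19.4 that includes 1. The calls of Lsm2 (limma adjusted p = 0.334) and Lsm10 (limma adjusted p = 0.364) follow from the HB libraries listed at 0, whose limit was given with their footprints.

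The members called lower in mRNA were also described by TE. Its mean in HF ranged from 0.0930 to 0.480 over the 7 called members tested, with a median of 0.123, against 0.718 for all 68 tested members. In HB the same genes ranged from 0.101 to 1.34 with a median of 0.374, against 0.697. Since mRNA is the lower part of the ratio and also chose these genes, this is a description and carries no test.

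Hnrnpl had TE of 0.370 and 0.591 in HF and 1.13 and 1.55 in HB (log2 change 1.47 ± 0.61, limma adjusted p = 0.412). Sf3b1 had 0.248 and 0.436 in HF and 0.968 and 0.581 in HB (1.17 ± 0.71). Prpf38b had 0.0949 and 0.152 in HF and 0.269 and 1.30 in HB (2.23 ± 0.96, limma adjusted p = 0.423). In each of these 3 the HB ratios were above the HF ratios, and none was called. Of the 7 called-lower genes tested, 6 had a TE log2 change above 0 and 1 below, Hnrnph3 (-0.28 ± 1.07). The HB ratios of Hnrnph1 were also above its HF ratios, while the groups of Prpf3, Prpf39 and Hnrnph3 overlapped. Those last genes had 6, 15 and 15 Ribo-seq reads in all, and each had an HB library listed at 0. Lower mRNA chose all of these genes, so the count of 6 carries no test.

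Prpf8 and Hnrnpk were not called in any measure. Prpf8 had TE of 2.36 and 2.69 in HF and 2.09 and 3.03 in HB (-0.01 ± 0.48), and Hnrnpk had 1.30 and 2.10 against 1.43 and 2.29 (0.12 ± 0.54). Snrpb had 1.28 and 1.95 in HF and 1.03 and 0.726 in HB (-0.83 ± 0.55). The 3 members whose mRNA rose at adjusted p had TE log2 changes with a median of -1.37, a description only, since higher mRNA chose them and Lsm4 was listed at 0 in the Ribo-seq of HB2. Ratios compared between genes carry the gene lengths behind the RPKM, which differed between the assays in 21 of the 69 members where both could be recovered, by over 10% in 8.

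**Figure D5:**
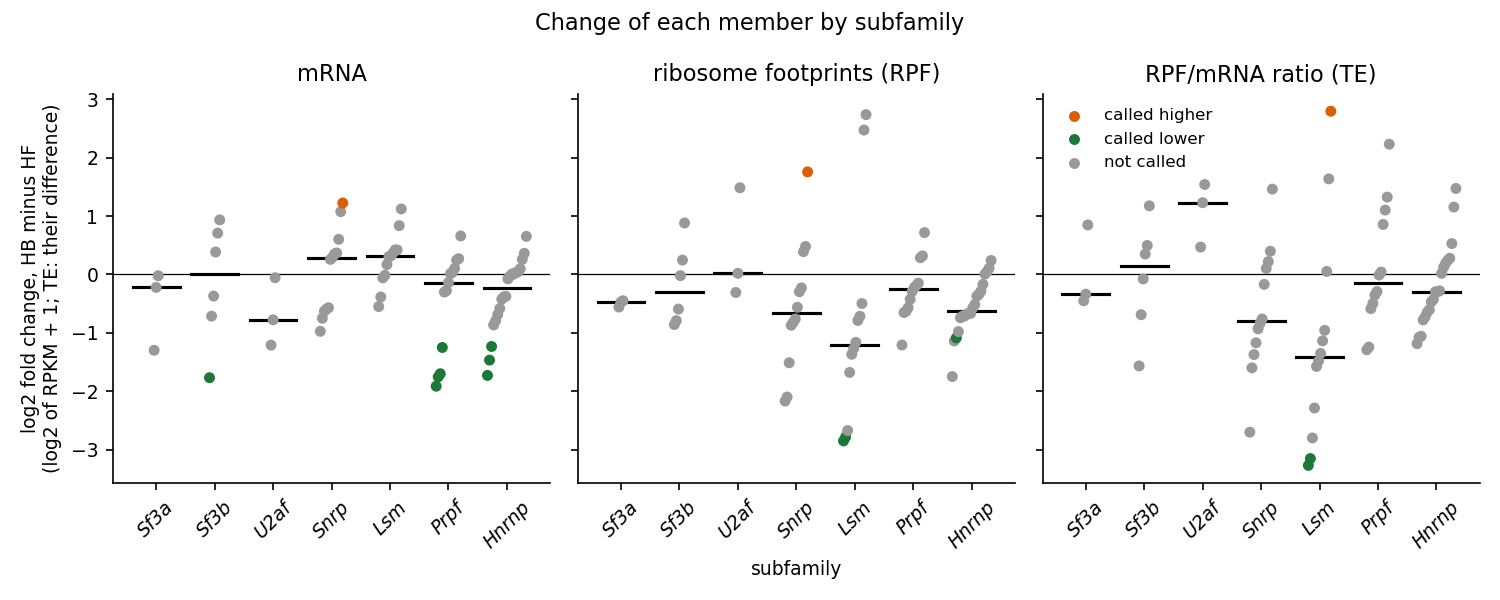
Log2 fold change, HB minus HF, of each member in mRNA (left), RPF (middle) and TE (right), by subfamily, with a black bar at the subfamily's median and colour for called members. Median mRNA changes run from -0.78 (U2af) to 0.31 (Lsm), and the Lsm genes have the lowest medians in RPF (-1.21) and TE (-1.42). The share of Ribo-seq reads on Lsm genes was below both HF libraries in HB2 only, the shallowest library.

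Subfamilies were also set side by side in RPF and TE. The median RPF log2 fold change was 0.02 for U2af, -0.26 for Prpf, -0.31 for Sf3b, -0.47 for Sf3a, -0.62 for Hnrnp, -0.66 for Snrp and -1.21 for Lsm genes. For TE it was 1.23 for U2af, 0.14 for Sf3b, -0.15 for Prpf, -0.30 for Hnrnp, -0.34 for Sf3a, -0.80 for Snrp and -1.42 for Lsm genes. With a common median the RPF medians of the Prpf and Sf3b genes turned to 0.07 and 0.02, and the TE medians of the Prpf and Hnrnp genes to 0.17 and 0.03. With a common sum of RPKM the RPF median of the U2af genes turned to -0.77 and the TE median of the Sf3b genes to -0.64. Those of the Sf3a, Snrp and Lsm genes stayed below 0 in both measures under these scalings. Lsm genes took 0.0196% and 0.0176% of the Ribo-seq reads in HF1 and HF2, 0.0187% in HB1 and 0.00846% in HB2. For Snrp genes the shares were 0.0121% and 0.0162% in HF, 0.0233% in HB1 and 0.0106% in HB2. In both subfamilies only the share in HB2, the shallowest library, was below both HF shares. In HB2, where 3 reads on 1 kb of gene amount to 21.1 RPKM, the median RPF of the Lsm genes was 0. Of all 71 members, 25 had at most 3 reads in both HB Ribo-seq libraries.

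In the wider splicing list, 1 gene was called higher and 3 lower in RPF of 60 tested, where 1.58% and 7.86% of all genes were. In TE 2 were called higher and 2 lower of 60, where 1.49% and 4.60% of all genes were, so these counts are near or under the background apart from the 2 higher in TE. Ppih, a cyclophilin of the tri-snRNP, had 8.08 and 16.3 RPKM of RPF in HF and 30.5 and 55.2 in HB (1.75 ± 0.53, limma adjusted p = 0.493). Rbm25 was lower in RPF too, with 11.6 and 21.7 in HF and 1.84 and 4.99 in HB (-2.03 ± 0.66, limma adjusted p = 0.493). Cwc25 and the cyclophilin Ppie were listed at 0 in both HB libraries.

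For TE, Ddx39b, an RNA helicase of splicing and mRNA export, was higher (2.12 ± 0.77, limma adjusted p = 0.378), as was Snrnp48 of the minor spliceosome (2.12 ± 0.78, limma adjusted p = 0.379). The tri-snRNP protein Snrnp27 (-2.35 ± 0.94) and the cyclophilin-like Cwc27 (-2.29 ± 0.71) were called lower, with limma adjusted p = 0.404 and 0.364. Footprints of Cwc27 were listed at 0 in both HB libraries and those of Snrnp27 in HB2, so these ratios rest on values at the floor. Neat1 had 748 and 599 RPKM in the HF Ribo-seq libraries and 33.0 and 126 in the HB ones, and its log2 fold change there was -3.35 ± 0.66 (limma adjusted p = 0.493).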

How the data were processed

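Per the labels and the study's methods, the authors aligned both kinds of reads to mm10 (FANSe2) and deposited each library as RPKM values, not counts. The study's own tests of mRNA and RPF used edgeR, which was not used here, and its TE test was a different one. The strand of counting and the placing of reads with several matches are not given in the sources used here. In RNA-seq, 4 entries that share a symbol were left out.

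Since the smallest values step by whole reads, totals per library were recovered with annotated transcript lengths, and 94.1% to 97.9% of the values above 0 came out whole to within 0.1 read. The main test was limma (3.58.1; R 4.3.3) with lmFit and a trended eBayes on log2(RPKM + 1), two-sided, group as the only factor, over every gene whose mean RPKM reached 1, with Benjamini-Hochberg adjustment. TE was log2((RPF + 1)/(mRNA + 1)). Call thresholds follow the study. The floor was 3 reads, and intervals and floors cover counting error only.

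The members and lists were chosen with earlier results of these data known. Genes named are the called members, the highest in mRNA of each subfamily, members fixed by role, and for other lists up to 3 called genes by p in each direction. Snrpc, Sf3b6, U2af1l4, Hnrnph2, Malat1, Gas5 and Meg3 were added after their values were seen. Some members are not reported here by name. Coordinates and transcript types are from GENCODE M21 (GRCm38). Steps were tested on simulated data. Alternatives changed the pseudocount (0.1), the filter (none, or 5 RPKM), the scaling (common median or sum), the variance trend, a replicate block, the p adjustment and the TE model (interaction), left out each library, ran voom on recovered reads, or kept genes with 100 or more Ribo-seq reads. Scaling to protein-coding reads, crossed blocks, crossed TE numbers and subfamily sums without their highest member were chosen after seeing the data.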

Additional observations from a re-analysis of the deposited data

How the results depend on the processing

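The 10 members lower in mRNA at adjusted p, and Snrpb and Lsm4, kept their direction under the 15 alternatives run. Sf3b1, Prpf38b, Prpf39 and Hnrnph1 also kept their calls under all of them.

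Members called higher in mRNA numbered 0 with a pseudocount of 0.1, no filter, a common sum of RPKM, protein-coding reads or voom, 4 with a common median, and 3 with the replicate block, with crossed blocks or at adjusted p. Members called lower numbered 5 without a filter and 4 with a common median. The members' median mRNA change was 0.25 with a common median. Leaving out 1 library gave 0 to 1 called higher, 5 to 10 called lower and medians of -0.29 to 0.00097. Of all genes, 2.28% were called higher and 6.40% lower with a pseudocount of 0.1, 0.459% and 1.12% without a filter, 5.05% and 2.72% with a common median, 2.14% and 7.18% with a common sum, 2.26% and 6.81% with protein-coding reads, 4.66% and 11.5% with the replicate block, 1.62% and 7.21% with voom, and 1.55% to 4.70% and 5.14% to 9.81% without 1 library.

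In RPF, members called higher numbered 0 with a pseudocount of 0.1, a common sum, no variance trend, genes with at least 100 Ribo-seq reads or adjusted p, 4 with a common median, and 3 with the replicate block, crossed blocks or voom. Those called lower numbered 1 with a mean RPKM of at least 5, 18 with a common sum, 5 with crossed blocks, and 0 with at least 100 Ribo-seq reads or at adjusted p. The median was -0.73 with a pseudocount of 0.1, -0.36 at a mean RPKM of at least 5, -0.23 with a common median, -1.22 with a common sum, -0.33 with voom and -0.29 with at least 100 Ribo-seq reads. Leaving out 1 library gave 0 to 4 called higher, 2 to 20 called lower and medians of -0.56 to -0.21. Of all genes, 1.38% were called higher and 8.13% lower with a pseudocount of 0.1, 1.50% and 8.70% with no variance trend, 2.22% and 4.48% at a mean RPKM of at least 5, 3.12% and 3.76% with a common median, 0.360% and 24.2% with a common sum, 1.89% and 5.76% with the replicate block, 2.08% and 5.96% with crossed blocks, 3.77% and 6.38% with voom, 1.67% and 7.67% with at least 100 Ribo-seq reads, and 0.509% to 4.68% and 6.45% to 23.3% without 1 library.

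In TE, members called higher numbered 0 with a pseudocount of 0.1, a common sum, at least 100 Ribo-seq reads or adjusted p, and 2 without a filter, with a common median, without a variance trend or with the interaction model. Those called lower numbered 0 with a mean RPKM of at least 5, at least 100 Ribo-seq reads or adjusted p, and 4 with a common sum or crossed blocks. The median was -0.56 with a pseudocount of 0.1, -0.17 at a mean RPKM of at least 5, 0.0047 with a common median and -0.93 with a common sum. Leaving out 1 library gave 0 to 5 called higher, 0 to 11 called lower and medians of -0.47 to 0.00083. Of all genes, 1.45% were called higher and 6.57% lower with a pseudocount of 0.1, 1.16% and 3.86% without a filter, 1.62% and 4.72% without a variance trend, 1.34% and 3.38% at a mean RPKM of at least 5, 2.74% and 2.68% with a common median, 0.425% and 13.9% with a common sum, 1.53% and 5.48% with crossed blocks, 1.62% and 4.39% with the interaction model, 0.548% and 3.22% with at least 100 Ribo-seq reads, and 0.666% to 4.81% and 1.30% to 13.4% without 1 library.

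The replicate numbers share only a number (correlations -0.104 and -0.0138). Crossing them in the block gave 3 members called higher and 10 lower in mRNA, against 4.44% and 12.2% of all genes. The cause of these shifts was not tested. With 2 libraries a group and few Ribo-seq reads, differences in footprints of low members are not detectable at this depth.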
